A study of Mus musculus with 12 samples.

Results

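Histone genes fall into 2 kinds that are measured side by side here: genes of the histone clusters and genes for histone variants. The genes described were those whose symbol begins with Hist1h, Hist2h, Hist3h, Hist4h, H1f, H2af or H3f, leaving out names that mark pseudogenes, with a mean level of at least 1 TPM (transcripts-per-million) over 11 libraries. TPM is a read count divided by gene length and scaled to the same sum in each library. The deposited tables mostly use newer names (H2bc4 for Hist1h2bc), so a name was also counted when RefSeq gives it an older symbol with these beginnings. As written the symbols gave 8 genes and the older symbols another 24, which makes 32 of the 11379 genes that reached 1 TPM. Of these, 23 are cluster genes, 8 are variant genes and 1, H3f3aos, is an antisense RNA at H3f3a. H1f2 (Hist1h1c) and H1f4 (Hist1h1e) were counted as cluster genes because they lie in the cluster on chromosome 13.

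The genes were chosen by their names and selected on this mean TPM, which is not a finding. Before that filter 89 names matched, 69 of clusters and 19 of variants, and 57 of them stayed under it, 14 of these at 0 in all 11 libraries. Just inside the limit were H2ac8 at 1.04, H2bc3 at 1.08, Hist1h2bp at 1.14 and H4c3 at 1.15 TPM. Just outside it were H4c12 at 0.966, H3c6 at 0.904, Hist1h4n at 0.873 and H2ac21 at 0.812 TPM. In all, 6 cluster genes, H2ac7, H2bc18, H4c8, H4c3, H2bc3 and H2ac8, reached 1 TPM through the doubly treated libraries alone, being under 1 TPM on average in the other 8. They had to be higher in that group, so counts over the 23 are descriptions and are followed by those over the 17 other cluster genes.

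The cells were G1E-ER4, mouse erythroid progenitors with no GATA1 of their own and with a version of it joined to an estrogen receptor domain, so that estradiol starts erythroid differentiation. Every group received siRNA by nucleofection in 2 rounds 24 h apart, 100 nM β-estradiol at the second round, and was harvested 24 h later. The 4 groups were siControl (a control siRNA), siControl plus DTPA (control siRNA with 25 µM of the zinc chelator DTPA from the start of differentiation), siZIP10 (siRNA to ZIP10, a zinc importer whose gene is Slc39a10) and siZIP10 plus DTPA (both, here called the double treatment). The labels give 3 biological replicates of this 1 line in each group and do not say whether replicates came from separately grown cultures. Where they did not, the p-values measure the spread between these samples, which may be technical. No untreated, undifferentiated or mock-transfected cells are among them.

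The table labelled siControl plus DTPA replicate 3 is identical to that of siZIP10 replicate 1 in all 55487 genes, so it was left out and siControl plus DTPA has 2 libraries. Slc39a10 stood at 2.62 TPM in siControl, 21.1 in siControl plus DTPA, 0.627 in siZIP10 and 5.1 in the double treatment (means of 3, 2, 3 and 3 libraries), which puts it lower with the siRNA at either zinc level, but higher in the double treatment than in siControl. Mt1 and Mt2, metallothionein genes known to follow zinc supply, were lower in each DTPA library than in each library without it. About 19770000 to 24860000 reads per library were recovered from the tables, among genes with an annotated length. The 11 erythroid markers summed to between 39445.3 and 57126.4 TPM in all libraries, with none of them at 0. Protein-coding genes of the nucleus held 77.73% to 80.05% of all TPM in the double treatment and 83.07% to 84.51% in the other libraries.

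During S phase, cluster histone genes supply the bulk of the histones that package new DNA. Their transcripts have no introns and usually end just after a conserved stem-loop that the protein SLBP binds, with no poly(A) tail. Variant genes lie outside the clusters, mostly have introns, make polyadenylated mRNA throughout the cell cycle and supply histones for replacement outside replication. Some cluster genes are known to make longer polyadenylated transcripts as well, above all in differentiating or resting cells. The libraries were made with a poly(A)-selecting mRNA kit, so a cluster gene's TPM reflects its polyadenylated transcripts and whatever untailed RNA was carried along, and not its total mRNA.

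The stem-loop was looked for in the annotated transcripts (GENCODE M21, build GRCm38) with the 16-base histone consensus, on the transcript strand. It was found in 18 of the 23 cluster genes (78.3%), in 1 of the 8 variant genes (H2ax) and in 68 of 21901 genes with a protein-coding transcript (0.31%). The sequences are shown because what follows them in the annotation differs so much between genes. Capitals mark the stem-loop and each is flanked by 5 bases, 5′ to 3′:
H1f2: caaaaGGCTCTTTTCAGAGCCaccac
H4c9: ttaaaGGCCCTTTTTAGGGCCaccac
H2bc8: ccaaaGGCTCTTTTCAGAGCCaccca
H3c4: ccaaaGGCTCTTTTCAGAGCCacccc
H4c8: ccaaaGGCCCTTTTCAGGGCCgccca
H2bc12: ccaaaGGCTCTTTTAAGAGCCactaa
H2ax: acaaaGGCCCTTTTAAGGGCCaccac
H1f2, H2bc8 and H3c4 hold the same 16 bases. The annotated H1f2 transcript runs on for 840 bases after it, that of H4c9 for 330, that of H3c4 for 752 and that of H2bc8 for 155, whereas that of H4c8 ends after 46 and that of H2bc12 after 30. H2ax, the variant gene with the stem-loop, is known to make both kinds of end, and its annotated transcript continues for 822 bases. A poly(A) signal (AATAAA or ATTAAA) stood in the last 50 bases of an annotated transcript in 8 of 23 cluster genes, in 7 of 8 variant genes and in 77.9% of the 21901 genes.

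Summed over all names, cluster genes were most abundant in the double treatment and variant genes least abundant there. The cluster sum lay between 236.5 and 240.0 TPM in siControl, 334.7 and 359.3 in siControl plus DTPA, 199.7 and 220.4 in siZIP10, and 932.2 and 947.2 in the double treatment. The double-treated mean, 939.1 ± 7.57 TPM (SD, n = 3), is 3.94 times that of siControl, 238.3 ± 1.75 (SD, n = 3). Ranges of the 4 groups did not overlap. The variant sum lay between 2266.0 and 2321.6 TPM in siControl, 1873.0 and 1884.5 in siControl plus DTPA, 1955.0 and 2031.2 in siZIP10, and 1553.4 and 1580.9 in the double treatment. Its double-treated mean, 1563.2 ± 15.4 TPM (SD, n = 3), is 0.681 times that of siControl. These ranges did not overlap either. Cluster genes thus held 9.31% to 9.58% of the TPM of both kinds in siControl and 37.2% to 37.9% in the double treatment. H1f2 made up 42.6% to 44.3% of the cluster sum in siControl and 59.1% to 60.9% in the double treatment, and the sum without it was 2.81 times that of siControl. In bulk RNA, fewer cells of a type and less RNA per cell cannot be told apart.

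**Figure D1:**
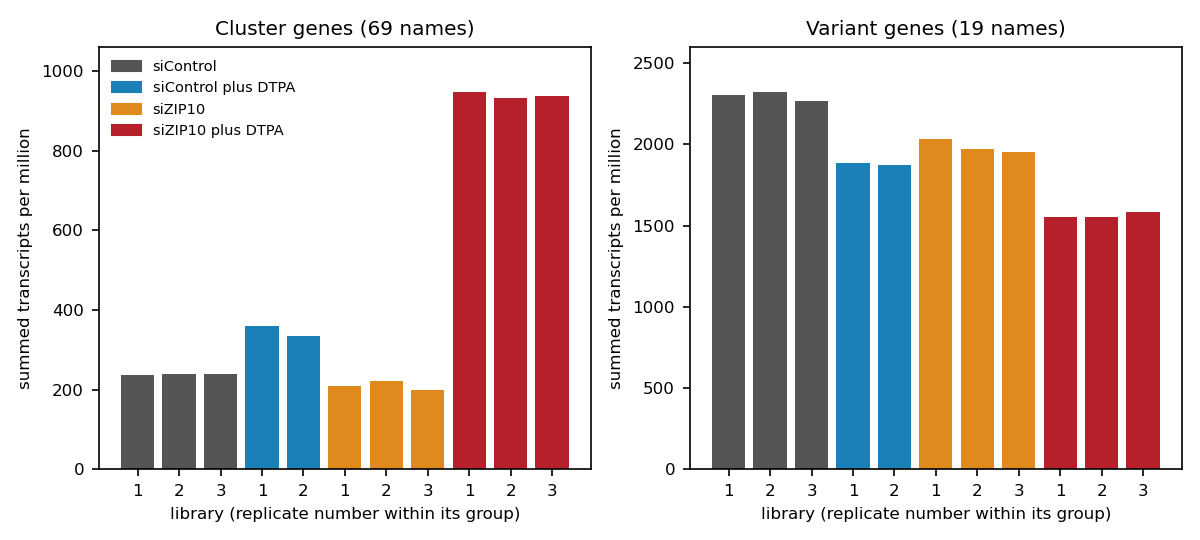
Summed TPM (bars, linear axis from 0) of the 69 cluster names on the left and the 19 variant names on the right, in each of the 11 libraries, coloured by group. The 3 double-treated libraries reach 932.2 to 947.2 TPM for cluster genes, above the other 8, and 1553.4 to 1580.9 TPM for variant genes, below the other 8.

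In the double treatment, the 7 cluster genes most abundant in the other 8 libraries rose, and the 2 most abundant variant genes fell. The next 2 cluster genes in that order, H2bc12 and H2bc21, did not pass. In the limma fit of log2(TPM + 1), adjusted over all genes tested by the Benjamini-Hochberg method, 15 of 23 cluster genes rose against siControl, 1 fell and 7 did not pass, with a median log2 change of 1.09. Of all genes tested 26.7% rose and 39.9% fell (66.6% in either direction), with a median of -0.08. Of all genes, 3041 rose and 4542 fell, or 3841 and 3809 after quantile normalization, which left the cluster counts at 15 and 1. Among the 17 cluster genes at 1 TPM or more in the other 8 libraries, 10 rose and 1 fell, with a median of 0.76. Of the 8 variant genes 1 rose, 4 fell and 3 did not pass, with a median of -0.29. Quantile normalization gave 3 higher and 4 lower variant genes with a median of -0.12, voom on recovered reads also 3 higher, and median-of-ratios or protein-coding scaling 2. Without any filter, the 41 cluster genes that are above 0 somewhere but under the limit had a median of -0.13, with 2 higher and 4 lower. In that fit 3352 of 20855 genes rose and 4518 fell, with a median of 0. By protein, the genes among the 17 that rose were 2 of 2 for linker histone H1, 3 of 3 for H2A, 3 of 9 for H2B, 1 of 2 for H3 and 1 of 1 for H4. Over all 23, with the 6 that had to be higher, they were 2 of 2, 5 of 5, 4 of 11, 1 of 2 and 3 of 3.

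**Figure D2:**
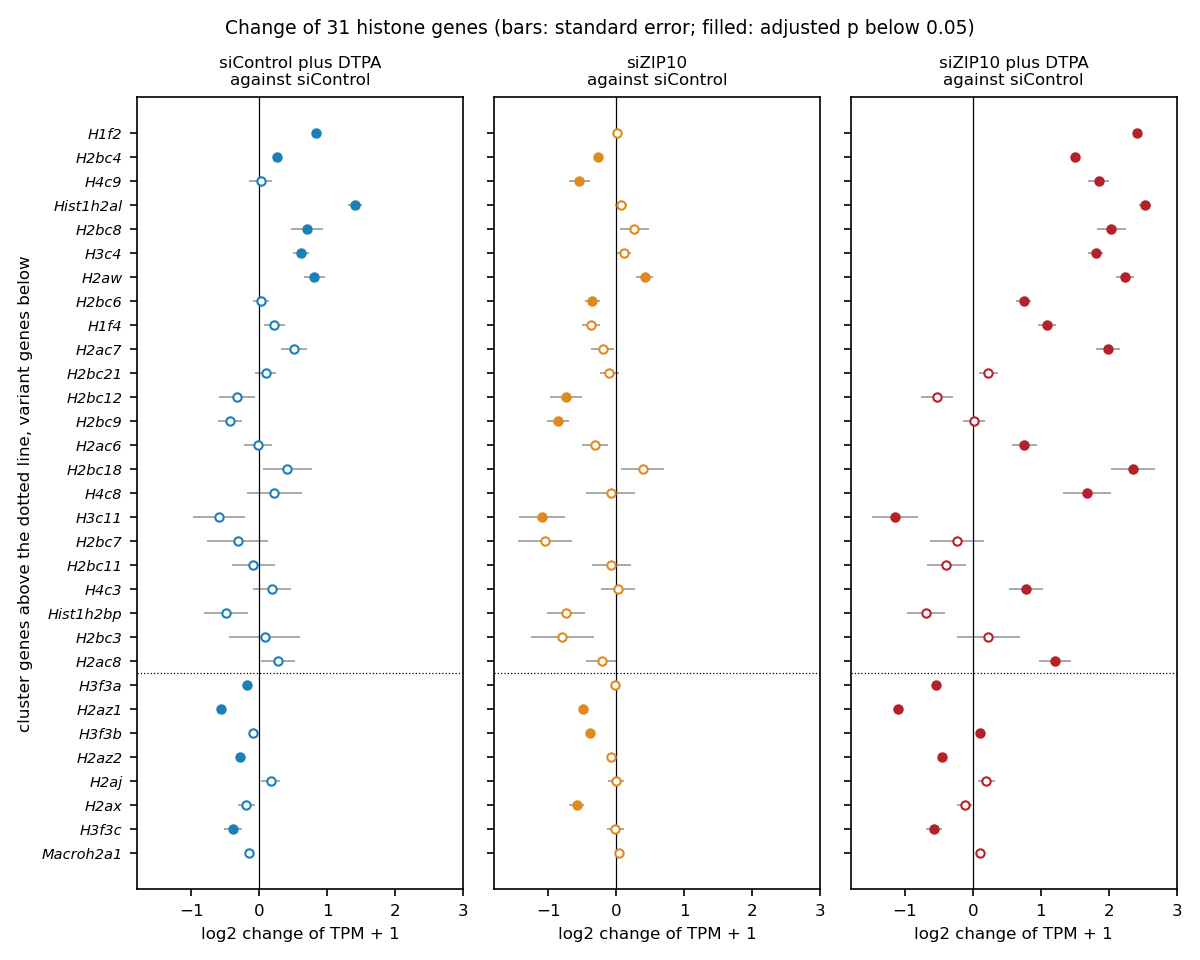
Log2 change of TPM + 1 against siControl for 23 cluster and 8 variant genes, in order of mean level within each kind, with standard errors as bars and filled points for an adjusted p below 0.05. Cluster genes in the double treatment run from -1.15 to 2.53, with 15 filled points above 0, and variant genes from -1.1 to 0.2.

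The linker histones bind DNA between nucleosomes. H1f2 (chr13:23738808-23740367, GRCm38, a single exon) was the most abundant cluster gene. It measured 104.7, 105.7 and 102.3 TPM in siControl, 198.4 and 175.0 in siControl plus DTPA, 106.3, 110.1 and 99.2 in siZIP10, and 566.3, 551.2 and 571.5 in the double treatment. The siZIP10 libraries overlapped siControl, both DTPA libraries lay above them, and the double-treated ones stood far above all others. Its log2 change was 2.42 ± 0.05 (SE) in the double treatment (limma, adjusted p = 2.45e-11), 0.83 ± 0.05 with DTPA alone (adjusted p = 3.53e-06) and 0.01 ± 0.05 with siZIP10 alone (adjusted p = 0.886). H1f4 was far lower, at 2.11, 1.64 and 2.01 TPM in siControl, 2.6 and 2.18 with DTPA, 0.972, 1.22 and 1.61 with siZIP10, and 4.69, 5.48 and 5.46 with both. The double-treated libraries of H1f4 lay above the other 8, with a change of 1.09 ± 0.13 (limma, adjusted p = 3.28e-05). H1f4 shares exons on the same strand with H2bc6, so reads of these neighbours may not be separable. H1f0 and H1f10, linker histone genes outside the clusters, are listed at 0 in every library. Exons of H1f0 overlap those of Gm49544, and exons of H1f10 overlap those of Gm47286 and Gm5577. Reads in such overlaps may not have been assigned, which was not tested, so a listed 0 need not mean absent transcripts.

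H2B genes took up much of the rest, and they did not move as 1 group. H2bc4 (chr13:23684199-23692908) measured 42.5, 42.9 and 44.4 TPM in siControl, 54.1 and 49.8 in siControl plus DTPA, 37.2, 34.4 and 35.7 in siZIP10, and 126.0, 122.7 and 124.1 in the double treatment. No 2 groups overlapped: siZIP10 was lowest, then siControl, then DTPA, then both. Its change was 1.5 ± 0.04 in the double treatment (limma, adjusted p = 1.65e-10), and its annotated transcript is spliced and holds no stem-loop. H2bc8 measured 7.23, 5.58 and 3.39 TPM in siControl, 9.23 and 8.92 with DTPA, 5.31, 5.95 and 8.48 with siZIP10, and 25.8, 25.1 and 22.6 with both. Its double-treated libraries lay above the rest, while siControl and siZIP10 overlapped. H2bc6 measured 2.84, 2.3 and 2.21 TPM in siControl, 2.53 and 2.42 with DTPA, 1.69, 1.72 and 1.69 with siZIP10, and 4.34, 5.22 and 4.83 with both, a change of 0.75 ± 0.11 in the double treatment (limma, adjusted p = 9.49e-05). H2bc18 held 0, 0.377 and 0.423 TPM in siControl, 0.356 and 1.03 with DTPA, 0, 1.54 and 0.744 with siZIP10, and 6.38, 4.73 and 5.3 with both. These stand for at most 1 recovered read in a siControl library and 14 to 18 in a double-treated one, so no fold is given. H2bc18 reached the 1 TPM limit through the double treatment and had to be higher there.

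The remaining 7 H2B genes did not pass in the double treatment. H2bc21 measured 2.01, 2.52 and 2.22 TPM in siControl, 2.49 and 2.4 with DTPA, 2.03, 1.97 and 2.05 with siZIP10, and 2.06, 3.4 and 3.08 with both, so the groups overlapped. H2bc12 measured 4.14, 2.42 and 3.39 TPM in siControl, 2.28 and 2.48 with DTPA, 1.97, 1.55 and 1.19 with siZIP10, and 1.7, 3.28 and 1.21 with both. H2bc9 measured 2.51, 2.57 and 2.79 TPM in siControl, 2.18 and 1.25 with DTPA, 1.02, 1.14 and 0.844 with siZIP10, and 3.06, 2.08 and 2.92 with both. H2bc9 was thus lowest in siZIP10, while its double-treated libraries lay on both sides of the siControl range, with a double-treatment change of 0.02 ± 0.16 (limma, adjusted p = 0.939). The other 4, H2bc7, H2bc11, Hist1h2bp and H2bc3, had changes of -0.23, -0.39, -0.69 and 0.23, none of which passed. H2bc12 moved past the threshold downward without siControl replicate 2 (-0.69) or without double-treated replicate 2 (-0.8). H2bc21 rose without double-treated replicate 1 (0.39), and H2bc3 without double-treated replicate 3 (0.87), in which it is listed at 0. H2bc3 reached the 1 TPM limit through the double treatment, so that rise is a description. Hist1h2bp passed downward without siControl replicate 3 (-0.82), siZIP10 replicate 2 or 3 (-0.69 each) or double-treated replicate 2 (-0.94).

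The 3 H2A cluster genes at 1 TPM or more in the other 8 libraries, Hist1h2al, H2aw and H2ac6, rose in the double treatment, and H2ac7 and H2ac8 reached the limit through it. Hist1h2al (chr13:51202727-51203065, annotated in GENCODE M21 as a processed pseudogene) measured 7.76, 8.9 and 8.56 TPM in siControl, 24.0 and 24.0 in siControl plus DTPA, 8.3, 8.68 and 9.61 in siZIP10, and 55.8, 59.2 and 45.5 in the double treatment. Its DTPA libraries lay above siControl and siZIP10, which overlapped, and its double-treated ones lay above all. The change was 2.53 ± 0.09 in the double treatment (limma, adjusted p = 1.78e-09), the largest among the 32 genes, and 1.41 ± 0.1 with DTPA alone (adjusted p = 6.79e-06). H2A cluster genes are near-identical copies, and reads assigned to Hist1h2al could come from another copy. Hist1h2al was counted as a cluster gene by its name alone, and lies apart from the other cluster genes on chromosome 13. H2aw, formerly Hist3h2a on chromosome 11, measured 4.17, 2.88 and 2.93 TPM in siControl, 5.69 and 7.4 with DTPA, 5.03, 5.0 and 4.23 with siZIP10, and 17.8, 18.5 and 21.6 with both. Its change was 2.24 ± 0.13 (limma, adjusted p = 8.45e-08), with each group's mean above that of siControl. H2aw shares exons with Trim17 on the same strand. H2ac7 measured 0.46, 1.01 and 1.13 TPM in siControl, 1.9 and 1.38 with DTPA, 0.547, 0.514 and 0.743 with siZIP10, and 5.67, 6.94 and 6.31 with both. These are 2, 4 and 4 recovered reads in siControl and 24, 33 and 25 in the double treatment.

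H2ac6 measured 1.85, 1.74 and 1.23 TPM in siControl, 1.04 and 2.22 with DTPA, 1.13, 1.19 and 0.97 with siZIP10, and 4.08, 3.44 and 2.73 with both. The double-treated libraries were the highest 3, by a small margin over 1 DTPA library, and the change was 0.76 ± 0.19 (limma, adjusted p = 0.00502). H2ac8 measured 0.373, 0.408 and 0.687 TPM in siControl, 1.35 and 0.373 with DTPA, 0.444, 0.209 and 0.201 with siZIP10, and 3.07, 2.05 and 2.25 with both. Its change was 1.21 ± 0.23 (limma, adjusted p = 0.000733), on 11 to 16 recovered reads in the double-treated libraries. H2ac8 reached the 1 TPM limit through that group and had to be higher there.

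H3 and H4 form the core tetramer of the nucleosome. H4c9 (chr13:22040636-22041362) measured 19.3, 15.6 and 21.5 TPM in siControl, 20 and 18.1 with DTPA, 10.8, 16.8 and 10.9 with siZIP10, and 69.9, 69.8 and 70.8 with both. DTPA alone left it within the siControl range, siZIP10 reached lower, and the double-treated libraries lay above all others, with a change of 1.85 ± 0.15 (limma, adjusted p = 1.15e-06). H4c8 and H4c3 reached the 1 TPM limit through the double treatment and had to be higher there. Their changes, 1.68 ± 0.36 (limma, adjusted p = 0.00171) and 0.78 ± 0.25 (adjusted p = 0.0182), are descriptions. In siControl, H4c8 rests on 0, 2 and 6 recovered reads and H4c3 on 1, 6 and 6. The H4c3 call ended without siControl replicate 1 (0.49) or without double-treated replicate 1 (0.66). H3c4 measured 6.84, 5.98 and 4.91 TPM in siControl, 9.02 and 9.98 with DTPA, 5.76, 6.36 and 7.26 with siZIP10, and 23.1, 21.9 and 24.0 with both. Its DTPA libraries lay above siControl and its double-treated ones above all, with a change of 1.81 ± 0.11 (limma, adjusted p = 7.91e-08). H3c11 fell by 1.15 ± 0.34 in the double treatment (limma, adjusted p = 0.0122). It was the cluster gene that fell, from 2.97 ± 1.22 TPM (SD, n = 3) to 0.785 ± 0.567 (SD, n = 3), on 4 to 12 recovered reads in siControl and 1 to 4 in the double treatment.

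**Figure D3:**
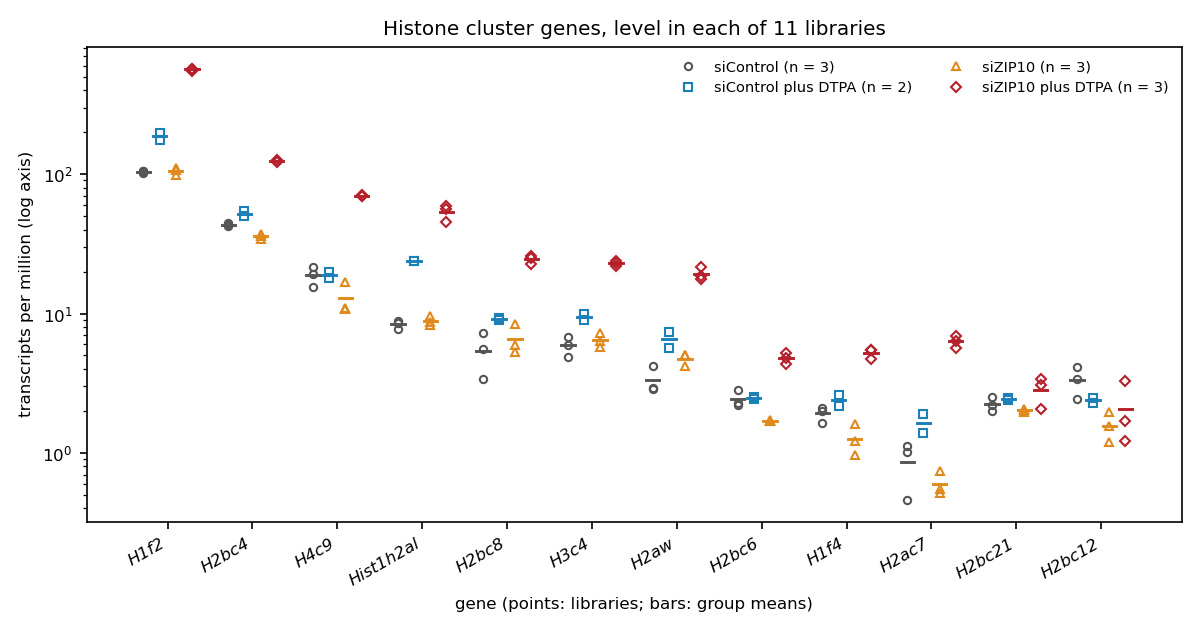
TPM (log axis) of the 12 cluster genes of highest mean level in each library (points, by group) with group means (bars). From H1f2 to H2ac7 the double-treated points lie above all others, whereas H2bc21 and H2bc12 overlap between groups. H2ac7 reached the 1 TPM limit through the double treatment and had to be higher there.

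Variant genes held more TPM than cluster genes in each library, and their 2 most abundant members fell in the double treatment. H3f3a encodes the replacement histone H3.3. It measured 926.4, 935.1 and 925.9 TPM in siControl, 818.7 and 826.5 in siControl plus DTPA, 941.4, 926.9 and 908.3 in siZIP10, and 628.9, 640.6 and 642.9 in the double treatment. The siZIP10 libraries overlapped siControl, the DTPA libraries were lower and the double-treated ones lower still, a change of -0.54 ± 0.02 (limma, adjusted p = 1.99e-09). H3f3b encodes the same protein from chromosome 11. It measured 279.7, 260.5 and 246.4 TPM in siControl, 243.3 and 244.0 with DTPA, 200.6, 197.0 and 204.2 with siZIP10, and 278.1, 281.0 and 291.6 with both. It was lowest in siZIP10 alone, and the double-treated libraries overlapped the highest siControl library. H3f3b rose by 0.11 ± 0.04 in the double treatment (limma, adjusted p = 0.0287), a call that ended without siControl replicate 2 (0.11), siControl replicate 3 (0.07) or double-treated replicate 3 (0.09).

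H2az1 and H2az2 encode H2A.Z, a variant found near gene starts. H2az1 measured 771.8, 757.7 and 747.3 TPM in siControl, 515.7 and 504.4 with DTPA, 563.4, 527.8 and 532.1 with siZIP10, and 367.7, 344.0 and 349.8 with both. Each treatment alone lay below siControl and the 2 together lay below either, with changes of -0.57 ± 0.04, -0.49 ± 0.03 and -1.1 ± 0.03 (limma, adjusted p = 3.01e-06, 3.2e-06 and 3.59e-10). H2az2 measured 194.1, 195.8 and 188.9 TPM in siControl, 164.1 and 152.1 with DTPA, 185.2, 178.3 and 186.7 with siZIP10, and 139.2, 142.7 and 139.2 with both, a double-treatment change of -0.46 ± 0.03 (limma, adjusted p = 3.37e-07). H2az2 was lower with DTPA and lower again with both, whereas its siZIP10 libraries came close to siControl.

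H2ax carries the phosphorylation that marks DNA breaks. It measured 48.8, 60 and 52.0 TPM in siControl, 49.4 and 44.4 with DTPA, 38.7, 38.2 and 30.3 with siZIP10, and 45.1, 47.5 and 54.9 with both. siZIP10 alone lay below all other libraries, and the double treatment overlapped siControl. H2aj measured 44.5, 64.9 and 64.0 TPM in siControl, 62.5 and 65.7 with DTPA, 59.3, 60.5 and 51.3 with siZIP10, and 63.8, 64.1 and 68.5 with both, with overlap between groups. Macroh2a1, a large H2A variant, measured 12.7, 12.9 and 13.3 TPM in siControl, 11.5 and 11.7 with DTPA, 12.5, 13.1 and 14.6 with siZIP10, and 14.7, 13.6 and 13.9 with both. Neither H2aj nor Macroh2a1 passed in any comparison with siControl. H3f3c measured 24.3, 34.3 and 28.3 TPM in siControl, 19.2 and 24.3 with DTPA, 30, 27.6 and 27.6 with siZIP10, and 17.7, 19.6 and 19.7 with both, a change of -0.57 ± 0.12 (limma, adjusted p = 0.00121). H3f3c, which GENCODE M21 lists as a processed pseudogene, and H3f3a-ps1, left out by name, resemble H3f3a closely, so their reads could be exchanged. H3f3a-ps1 stood at 164.0, 140.2, 150.7 and 114.5 TPM (group means in the same order). The antisense RNA H3f3aos, at 2.05 ± 0.352 TPM in siControl and 1.5 ± 0.194 in the double treatment (SD, n = 3 each), overlaps H3f3a and its change of -0.28 ± 0.14 did not pass (limma, adjusted p = 0.104), though it did without siControl replicate 1 (-0.38).

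**Figure D4:**
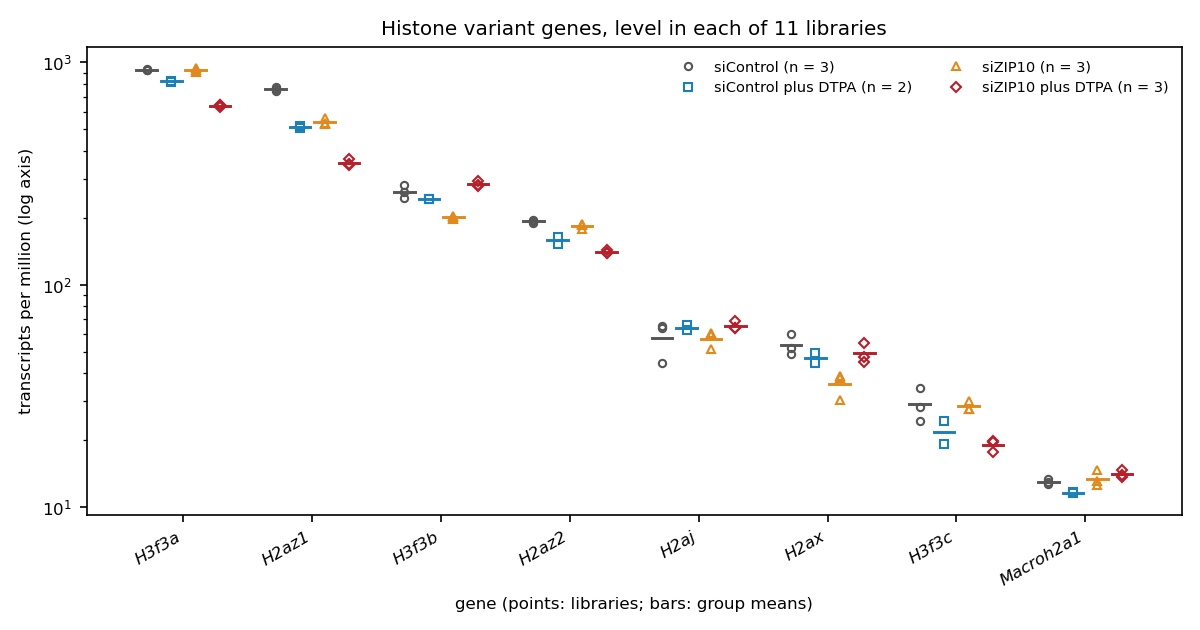
TPM (log axis) of the 8 variant genes in each library (points, by group) with group means (bars). H3f3a, H2az1, H2az2 and H3f3c have their lowest mean in the double treatment, whereas H3f3b and H2ax have it in siZIP10 alone.

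DTPA alone, which asks what low extracellular zinc does when ZIP10 is present, raised a few cluster genes and lowered part of the variant genes. Among cluster genes 6 rose (9.98% of all genes rose and 28.8% changed in either direction) and 17 did not pass, with a median of 0.19 against -0.04 for all genes. Of all genes 1136 rose and 2136 fell, or 1625 and 1780 with median-of-ratios scaling and 1727 and 1653 after quantile normalization, and the cluster count was 6 under each. The 17 cluster genes not chosen through the double treatment include all 6 and had a median of 0.02. Those that rose were Hist1h2al, H1f2, H2aw (0.81 ± 0.15, limma, adjusted p = 0.00229), H3c4 (0.61 ± 0.12, adjusted p = 0.00312), H2bc4 (0.26 ± 0.04, adjusted p = 0.00138) and H2bc8 (0.7 ± 0.23, adjusted p = 0.0453). The H2bc8 call ended in 8 of the 11 fits that each left out 1 library (0.45 to 0.74), the other 3 being those without siControl replicate 1, siZIP10 replicate 1 or siZIP10 replicate 3. Of the variant genes 4 fell (18.8% of all genes fell): H2az1, H2az2 (-0.29 ± 0.04, limma, adjusted p = 0.000219), H3f3a (-0.18 ± 0.02, adjusted p = 0.000244) and H3f3c (-0.39 ± 0.13, adjusted p = 0.0431). The H3f3c call ended in 9 of those fits (-0.4 to -0.23), and held without siControl replicate 1 or without siControl plus DTPA replicate 2. H3f3b fell without siControl replicate 3 (-0.15), and H2bc9 fell without siControl plus DTPA replicate 1 (-0.68).

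siZIP10 alone asks what less ZIP10 does at normal zinc, and here about the same share of cluster genes as of all genes passed. Among cluster genes 6 fell (17.5% of all genes fell), 1 rose (13.1% rose, 30.6% in either direction) and 16 did not pass, with a median of -0.21 against -0.01 for all genes. All 7 are among the 17, which had a median of -0.31. Of all genes 1493 rose and 1987 fell, or 2010 and 1694 after quantile normalization, with 7 cluster genes lower and 1 higher there. H2bc9 fell by 0.86 ± 0.16 (limma, adjusted p = 0.00282) and H2bc4 by 0.27 ± 0.04 (adjusted p = 0.00055), and both calls held in each fit that left out 1 library. The other 4 rested on single libraries. H4c9 (-0.54 ± 0.15, limma, adjusted p = 0.0223) no longer passed without siControl replicate 1 or 3 or siZIP10 replicate 1 or 3 (-0.51 to -0.43). H3c11 (-1.09 ± 0.34, limma, adjusted p = 0.0349) no longer passed without siControl replicate 1 or 2 or siZIP10 replicate 2 or 3 (-1.05 to -0.88). H2bc6 (-0.35 ± 0.11, limma, adjusted p = 0.0314) was lost without siControl replicate 1 or 2 or any siZIP10 replicate (-0.38 to -0.27). H2bc12 (-0.74 ± 0.24, limma, adjusted p = 0.041) was lost in 7 such fits (-0.74 to -0.6) and held without siControl replicate 2, siZIP10 replicate 1, double-treated replicate 2 or double-treated replicate 3. H2aw, the gene that rose (0.42 ± 0.13, limma, adjusted p = 0.0364), was lost without siControl replicate 2 or 3 or siZIP10 replicate 1 or 2 (0.35 to 0.39). Left out singly, siZIP10 replicate 2 brought H2bc7 under the threshold (-1.51), siZIP10 replicate 3 brought H1f4 under it (-0.48), double-treated replicate 2 brought Hist1h2bp (-0.74) and double-treated replicate 3 brought H2bc3 (-0.79). Of the variant genes 3 fell, H2az1, H3f3b (-0.38 ± 0.04, limma, adjusted p = 6.61e-05) and H2ax (-0.58 ± 0.11, adjusted p = 0.00278).

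The 3 comparisons above share the siControl libraries, so the values of a gene in them are not independent. Set against the single treatments in place of siControl, the double treatment gave the same direction for most abundant cluster genes. Against siZIP10 alone, 16 cluster genes rose (23.1% of all genes rose, 37.3% fell and 60.4% did either), with a median of 1.42 against -0.06, or 11 of the 17 with a median of 1.1. Against siControl plus DTPA, 14 rose (21.3% of all genes rose, 31.7% fell and 53.1% did either), with a median of 0.87 against -0.04, or 10 of the 17 with a median of 0.77. Rescaled to protein-coding genes, 3465 of all genes rose and 3455 fell against siZIP10 (2623 and 4248 unscaled; 3405 and 3581 by median-of-ratios) and 3262 and 2881 against siControl plus DTPA (2426 and 3611 unscaled), with 17 and 15 cluster genes higher. H1f2 stood at 5.35 times its siZIP10 mean and 3.02 times its siControl plus DTPA mean, and H4c9 at 5.47 and 3.69 times. Among the variant genes H3f3b (0.5 ± 0.04, limma, adjusted p = 1.54e-06) and H2ax (0.45 ± 0.11, adjusted p = 0.00423) rose against siZIP10, while H3f3a, H2az1, H2az2 and H3f3c fell.

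Whether DTPA acted differently with the siRNA against ZIP10 than without it was tested by the interaction term, the DTPA change within siZIP10 minus that within siControl. It was positive and passed in 14 cluster genes (12% of all genes were higher in this sense and 20.4% lower, 32.4% in all), with a median of 1.08 against -0.02 for all genes. Of all genes 1369 were higher and 2318 lower, or 2117 and 1793 rescaled to protein-coding genes and 2015 and 2250 by voom, with 15 and 14 cluster genes higher. Of the 17 cluster genes not chosen through the double treatment, 11 passed, again with a median of 1.08. H4c9 had the largest term, 2.37 ± 0.23 (limma, adjusted p = 2.44e-05): its DTPA change was 0.02 with siControl and 2.39 with siZIP10. H1f2 had a term of 1.58 ± 0.07 (limma, adjusted p = 1.44e-07) and H2bc4 one of 1.51 ± 0.06 (adjusted p = 4.33e-08). H2az1, in contrast, had a term of -0.04 ± 0.05 (limma, adjusted p = 0.594), since its DTPA change was -0.57 with siControl and -0.61 with siZIP10. Of the variant genes H3f3b (0.6 ± 0.06, limma, adjusted p = 3.52e-05) and H2ax (0.64 ± 0.16, adjusted p = 0.0124) passed upward and H3f3a downward (-0.36 ± 0.03, adjusted p = 9.08e-06).

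Single libraries decided the interaction of some genes. The terms of H2ac8 (0.76 to 1.11 in the fits that lost it), H2bc18 (1.27 to 1.58) and H2bc8 (0.95 to 1.09) were lost in 5, 5 and 4 of the fits that left out 1 library. For H2ac8 the libraries were siControl replicate 3, siControl plus DTPA replicate 2, siZIP10 replicates 2 and 3 and double-treated replicate 1. For H2bc18 they were siControl replicates 2 and 3, siControl plus DTPA replicate 1 and double-treated replicates 1 and 3, and for H2bc8 both siControl plus DTPA replicates and siZIP10 replicates 1 and 2. H2ac6 was lost without siControl plus DTPA replicate 1 (0.75) and H2ax without siControl plus DTPA replicate 2 (0.56). H4c8 came to pass without siControl replicate 1 (1.92) or double-treated replicate 2 (1.75), and H4c3 without siControl replicate 1 (0.85). H2bc3 came to pass without double-treated replicate 3 (1.57), H2bc7 without siZIP10 replicate 2 (1.6), Macroh2a1 without siZIP10 replicate 3 (0.28) and H2az2 without siControl plus DTPA replicate 2 (-0.15). Of these genes, H2ac8, H2bc18, H4c8, H4c3 and H2bc3 reached the 1 TPM limit through the double treatment and had to be higher there.

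The changes of cluster genes are described here by what is annotated after the stem-loop. Among the 17 genes not chosen through the double treatment, 8 of the 9 with more than 100 annotated bases after it rose there, with a median of 1.81, where 26.7% of all genes rose. The 4 with at most 100 bases, H2bc12, H2bc7, H2bc11 and Hist1h2bp, did not pass and had a median of -0.46. Over all 23, 10 of 11 with 151 to 2010 bases were called higher (median 1.21), as were H2ac7 and H4c8 among the 7 with 23 to 46 (median -0.23), but the 5 genes H2ac8, H4c3, H2ac7, H4c8 and H2bc3 of these sets reached the limit through the double treatment. The genes of the second set were also low, at 0.864 to 3.32 TPM in siControl against 0.49 to 104.2 TPM in the first, so length and level cannot be told apart here. Of those with no stem-loop in an annotated transcript, H2bc4 and Hist1h2al rose, H3c11 fell and H2bc21 did not pass. H2bc18, also among them, was called higher but reached the limit through the double treatment. The GENCODE M21 transcripts of H3c11 and H2bc18, of 411 and 381 bases, end before the RefSeq genes do. A stem-loop past those ends would have been missed, so this set need not lack the element. Where the reads of a gene ended was not analysed here.

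**Figure D5:**
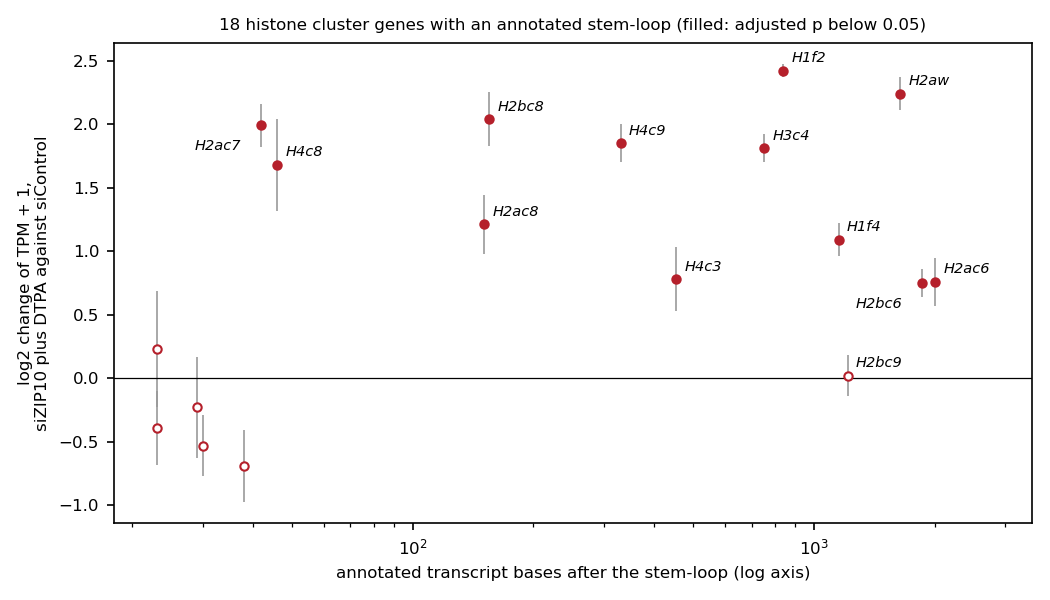
Log2 change of TPM + 1 in the double treatment against siControl (vertical axis, with standard errors) for the 18 cluster genes with an annotated stem-loop, by the annotated transcript bases after it (log axis), with filled points for an adjusted p below 0.05. The 11 genes with 151 to 2010 bases include 10 filled points above 0, and the 7 with 23 to 46 bases include H2ac7 and H4c8, where H2ac8, H4c3, H2ac7, H4c8 and H2bc3 reached the 1 TPM limit through the double treatment.

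Several cluster genes lie head to head on chromosome 13. H2ac6 (chr13:23681467-23683948, minus strand) and H2bc4 (plus strand) both rose in the double treatment. H2ac8 (chr13:23570517-23571220, minus strand) lies beside H2bc8 (chr13:23571396-23572013, plus strand), and H2bc7 (chr13:23573736-23574196, minus strand) beside H2ac7 (chr13:23574381-23574952, plus strand). H2ac8 and H2ac7 reached the limit through the double treatment, so nothing is read from these pairs, and H2bc7, at -0.23 ± 0.4 (limma, adjusted p = 0.628), rested on 0 to 9 recovered reads per library.

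Promoter sequences of RefSeq (GRCm38.p6, 250 bases before to 50 after the start) were matched for 19 cluster and 7 variant genes. H2bc4, H2ax, H2bc21, Hist1h2al and Hist1h2bp had no entry. H1f2 and H2bc8 are shown as cluster genes that rose and H2az1 as a variant gene that fell. Capitals mark 4 motifs searched on both strands: the octamer ATTTGCAT, which POU-domain factors bind, the box CCAAT, known for binding NF-Y, the TATA box searched as TATAAA, and the H1 box of linker histone genes searched as AAACACA. None of these motifs contains another. The windows are chr13:23738557-23738856, chr13:23571150-23571449 and chr3:137864237-137864536, all on the plus strand, 5′ to 3′:
H1f2: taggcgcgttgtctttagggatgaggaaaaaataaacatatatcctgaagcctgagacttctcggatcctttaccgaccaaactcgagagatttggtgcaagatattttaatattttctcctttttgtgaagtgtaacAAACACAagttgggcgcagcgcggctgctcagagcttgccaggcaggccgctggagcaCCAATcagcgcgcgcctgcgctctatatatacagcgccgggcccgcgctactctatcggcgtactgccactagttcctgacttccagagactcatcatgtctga
H2bc8: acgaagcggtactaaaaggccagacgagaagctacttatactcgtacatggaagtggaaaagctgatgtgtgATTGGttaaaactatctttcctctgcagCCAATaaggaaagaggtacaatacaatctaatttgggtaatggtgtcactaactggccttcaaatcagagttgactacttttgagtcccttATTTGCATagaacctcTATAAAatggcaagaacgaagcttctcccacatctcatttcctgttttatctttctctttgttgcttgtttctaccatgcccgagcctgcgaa
H2az1: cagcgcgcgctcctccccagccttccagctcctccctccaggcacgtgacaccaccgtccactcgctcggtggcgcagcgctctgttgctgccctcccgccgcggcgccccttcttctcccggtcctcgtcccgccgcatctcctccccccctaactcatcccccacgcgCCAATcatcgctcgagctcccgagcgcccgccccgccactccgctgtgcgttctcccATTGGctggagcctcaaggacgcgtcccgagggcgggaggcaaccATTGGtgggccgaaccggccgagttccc
A gene was counted when any of its promoters held the motif. The octamer stood in 8 of 19 cluster genes, 5 of 8 among H2B genes, against 1 of 7 variant genes (H3f3b). It stood in 1.97% of 27025 genes with promoters of the same length. CCAAT stood in 17 of 19 cluster genes, 5 of 7 variant genes and 41.1% of all genes. TATAAA stood in 11 of 19, 1 of 7 and 15.7%, and the H1 box in 2 of 19 (H1f2 and H1f4), 1 of 7 and 8.22%. The octamer was present both in H2B genes that rose (H2bc8, H2bc6) and in H2bc12, which did not pass. It was also present in H2bc18 and H2bc3, which reached the 1 TPM limit through the double treatment, so nothing is read from their changes. A match describes these letters and is not a site.

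Genes known for transcribing cluster genes and for handling their mRNA mostly fell. In the double treatment, 14 of 23 genes of histone mRNA end processing and decay fell and 6 rose, with a median of -0.22, where 39.9% of all genes fell and 26.7% rose (median -0.08). The share that rose in this list is close to that of all genes. Slbp, which binds the stem-loop, fell by 0.64 ± 0.04 (limma, adjusted p = 1.45e-07), from a mean of 43.8 to 27.8 TPM. At the ends of that list were Lsm4 (-1.37) and Cstf2 (-0.76), and Mif4gd (0.54) and Prkdc (0.38). Of 20 genes of histone gene transcription 14 fell and 3 rose, with a median of -0.26. Npat, the coactivator of cluster genes, fell by 0.3 ± 0.06 (limma, adjusted p = 0.000942), and Casp8ap2, in both lists, fell by 0.41 ± 0.05 (adjusted p = 4.36e-05). Ccne1, whose cyclin acts with CDK2 upstream of NPAT, fell by 2.06 and Pou2f1, which encodes an octamer-binding factor, by 1.04, while Trrap (0.36) and Yy1 (0.27) rose. With DTPA alone (18.8% of all genes fell and 9.98% rose) 7 and 5 genes of the 2 lists fell and 1 rose, a gene of end processing and decay. With siZIP10 alone (17.5% of all genes fell and 13.1% rose) 10 and 6 fell and 2 rose, both of end processing and decay.

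Chaperones, which carry histones to DNA, fell in 27 of 37 cases and rose in 3 in the double treatment, with a median of -0.58, against 39.9% lower and 26.7% higher among all genes. Asf1b, the chaperone of proliferating cells, fell by 1.95 ± 0.04 (limma, adjusted p = 4.03e-11), and Hira, which deposits H3.3, by 0.44 ± 0.08 (adjusted p = 0.000803). Hjurp (-2.44), of centromeric deposition, fell most, and Nap1l1 (0.29) and Ubn2 (0.21) were at the other end. Genes of S phase and DNA replication fell in 40 of 43 cases and rose in 2, with a median of -1.39. The helicase gene Mcm5 (-4.15) and Rrm2 (-3.82), of nucleotide reduction, fell most, and Rfc2 (0.16) rose. With DTPA alone 38 of the 43 fell, with a median of -0.54, where 18.8% of all genes fell. With siZIP10 alone 37 fell, with a median of -0.68, where 17.5% of all genes fell. The 23 cluster genes had medians of 0.19 and -0.21 in these comparisons. The 17 of them not chosen through the double treatment had medians of 0.02 and -0.31. General cleavage and polyadenylation genes fell in 12 of 19 cases and rose in 2, with a median of -0.3, against the same 39.9% and 26.7% of all genes. Pabpc4 (-1.26) and Hnrnpf (-0.87) were lowest, and Rbbp6 (0.47) and Pabpc1 (0.25), the main cytoplasmic poly(A)-binding protein, rose.

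Markers of other blood cells moved in the same libraries. The 8 megakaryocyte markers summed to 16.2 to 17.5 TPM in siControl, 25.7 to 26.7 in siControl plus DTPA, 17.2 to 18.7 in siZIP10 and 57.3 to 58.5 in the double treatment, with Ppbp at 0 in all groups. The 7 mast cell and basophil markers summed to 0.832 to 1.26 TPM in siControl and 20.8 to 22.7 in the double treatment, of which Hdc gave 21.6 on average, with Cma1, Fcer1a, Mcpt8 and Ms4a2 at 0. The 8 myeloid markers summed to 2.33 to 3.32 and 5.86 to 6.8 TPM, with Elane, Itgam, Ly6g, Mpo and S100a8 at 0. The 7 lymphoid markers summed to 0.296 to 1.08 and 2.38 to 3.25 TPM, with Il7r and Rag1 at 0. Of the 11 erythroid markers 8 fell and 2 rose in the double treatment (39.9% of all genes fell and 26.7% rose), among them Slc4a1, from 445.0 to 22.5 TPM. The part of these shifts, and of the lower protein-coding share given above, in the histone changes was not tested. With each library rescaled to its protein-coding genes, 15 cluster genes rose and 1 fell in the double treatment, where 3777 of all genes rose and 3926 fell. The unscaled values also gave 15 and 1, where 3041 of all genes rose and 4542 fell. Both cluster counts are over all 23, including genes that reached the limit through the double treatment.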

How the data were processed

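RNA of 4 groups was measured by poly(A)-selected sequencing. The authors deposited 1 TPM table per sample, and used HISAT2 2.1.0 and Trimmomatic 0.33 with FastQC, edgeR and featureCounts on build mm10, per the submitters' processing notes; the strand setting is not given in the sources used here. The histone genes and the gene lists were chosen with earlier results of these data known. Here log2(TPM + 1) of the 11379 genes averaging 1 TPM or more across 11 libraries was fitted with limma 3.58.1 (mean-variance trend, 4 group means, two-sided tests, R 4.3.3, Benjamini-Hochberg adjustment, threshold 0.05). A change on this scale understates that of genes of low TPM. TPM multiplied by GENCODE M21 exon length gave whole reads (within 0.1) for 98.87% to 99.07% of values of up to 20 reads. Values by library are given for the 12 cluster and 8 variant genes of highest mean and for genes that passed the interaction; of other lists, Slbp, Npat, Casp8ap2, Asf1b, Hira and the extremes. The fitting code was tested on simulated data. Same-numbered replicates correlated between -0.06 and 0.061 in their deviations from group means, and the labels name no shared batch, so no block was used. Alternatives were other pseudocounts, filters, scalings, voom on recovered reads, a replicate block, all 12 tables as labelled and leaving out each library. Some genes of these lists are not reported here.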

Additional observations from a re-analysis of the deposited data

Results flagged for a closer look

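In 17 histone genes the DTPA effect with the siRNA against ZIP10 differed from that without it. The measure was the interaction term of the limma fit (log2 scale, adjusted p below 0.05). Of all genes tested 32.4% passed in this term, 12% upward and 20.4% downward. Among cluster genes the difference was 2.37 for H4c9, 1.68 for H2ac7, 1.58 for H1f2, 1.56 for H2bc18, 1.51 for H2bc4, 1.31 for H2bc9 and 1.24 for H1f4. It was 1.15 for H2ac8, 1.08 for each of H3c4, H2bc6 and H2ac6, 1.07 for H2bc8, 1.05 for Hist1h2al and 1.01 for H2aw. Among variant genes it was 0.64 for H2ax, 0.6 for H3f3b and -0.36 for H3f3a. H2bc9, H2ax and H3f3b were below siControl with siZIP10 alone and near the siControl level in the double treatment. H2ac7, H2bc18 and H2ac8 reached 1 TPM through the doubly treated libraries alone. The terms of H2ac8, H2bc18 and H2bc8 were lost in 5, 5 and 4 of the fits that left out 1 library. Those of H2ac6 and H2ax were lost in 1 such fit each.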

How the results depend on the processing

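Over 23 alternatives, 2723 of 2876 values of single genes kept their direction and their side of the threshold, 108 no longer passed, 45 came to pass and 0 changed sign as called. These values cover each treatment against siControl and the interaction. Single genes in the 2 comparisons of the double treatment with single treatments are not among them. The cluster count with siZIP10 alone was the least stable: 7 passed as reported, against 2 without a filter, 3 with all 12 tables as labelled, 4 in a fit of only the groups compared and 4 with a replicate block, and 3 to 8 when 1 library was left out (3 without siControl replicate 1). A filter of 5 TPM left 7 cluster genes to test, of which 3 passed with siZIP10 alone. All 7 passed in the double treatment, its 2 comparisons with single treatments and the interaction. Of the 8919 genes tested under that filter, 3349 passed with siZIP10 alone, 6643 in the double treatment and 3549 in the interaction. Against siZIP10 alone 6136 passed, and against siControl plus DTPA 5488. H2aw averaged 4.67 TPM outside the double treatment, so it reached this filter through that group and had to be higher there. With all 12 tables as labelled, 2 variant genes passed with DTPA alone, against 4. Replicate numbers did not pair samples (same-numbered pairs correlated between -0.06 and 0.061, others between -0.086 and 0.066), and the replicate block moved no other cluster or variant count by over 1.5 times. The cause of these shifts was not tested, apart from the fewer genes tested under the 5 TPM filter. Depth limits the low cluster genes, which rest on 0 to 33 recovered reads per library in H2ac7, H2bc18, H4c8, H3c11, H2bc7, H2bc11, H4c3, Hist1h2bp, H2bc3 and H2ac8.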

Other observations

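Outside the histones, the 5 genes whose level ran most like the mean log2(TPM + 1) of the 23 cluster genes over the 11 libraries were Il9r, Plec, Vwa7, Adpgk and Car1, with Pearson correlations of 0.9873, 0.9873, 0.9866, 0.9858 and 0.9845. These are descriptions over libraries that share 4 groups, with no test. The mean over the 23 includes genes that reached 1 TPM through the double treatment alone, which had to be higher there. Car1, a carbonic anhydrase gene, averaged 64.6 TPM in siControl, 90.8 in siControl plus DTPA, 43.2 in siZIP10 and 395.7 in the double treatment. Il9r, the interleukin 9 receptor gene, averaged 1.95, 3.97, 1.37 and 12.8 TPM in the same order. Plec, which encodes the linker protein plectin, averaged 3.15, 3.54, 2.49 and 5.49 TPM, and Adpgk, an ADP-dependent glucokinase gene, 19.8, 22.2, 16.7 and 30.5 TPM. All 5 were highest in the double treatment and lowest in siZIP10 alone.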
